A study of Saccharomyces cerevisiae with 6 samples.

Results

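The genes described here are the UTP, NOP and RRP genes of budding yeast, Saccharomyces cerevisiae, whose products build the ribosome in the nucleolus. They were taken by name: every S. cerevisiae probe set whose annotated symbol was UTP, NOP or RRP followed only by digits. This gave 53 genes, 18 UTP, 17 NOP and 18 RRP, of 5449 genes tested, each on 1 probe set that names no second gene. RNA had been measured on 6 Affymetrix expression arrays, 3 of the wild-type strain FY4 and 3 of a strain carrying a GCN4 deletion. GCN4 encodes the transcription factor of the yeast amino acid starvation response, and the comparison asked how expression without it differed from the reference strain. Both strains grew exponentially in batch culture on minimal medium with glucose. The labels name FY4 as the strain of the wild-type arrays and give no parent, marker or clone number for the deletion, and do not say how the replicates were grown. All p-values therefore rest on array-to-array spread, which may be technical.

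Ribosome biogenesis starts with transcription of a long rRNA precursor by RNA polymerase I. UTP factors, named for U3, assemble with the U3 small nucleolar ribonucleoprotein (snoRNP) on that precursor into the small subunit processome, in which the 18S rRNA is cut out and folded. NOP (nucleolar protein) genes include the core proteins of the snoRNPs that modify rRNA and many factors of large subunit assembly, and RRP (ribosomal RNA processing) genes include the subunits of the RNA exosome, which trims the 5.8S rRNA from its precursor. In yeast these genes form a large co-regulated group that is known to follow growth rate and nutrient signals through TORC1 and Sch9.

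The deposited values were normalised intensities, used here as log2, and a change is the deletion mean minus the wild-type mean. GCN4 itself, which checks the labels, gave wild-type intensities of 23339, 18826 and 20142 and deletion intensities of 18.5, 22.3 and 18.1. All 53 genes lay above the background level of every array, the 95th percentile of the probe sets for another yeast. Their group means ran from 10.29 to 13.85 on the log2 scale. The 12 poly-A spike-in probe sets, RNA added during preparation, were 1.68 higher on the log2 scale on the deletion arrays, and each direction below is relative to the arrays as deposited. Scaled to these spike-ins, all 53 genes were lower in the deletion, as were 5249 of all 5449 genes.

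UTP, NOP and RRP genes changed little in the deletion strain. By limma with adjustment over all genes, 3 of the 53 rose (UTP21, RRP3 and RRP42), 1 fell (NOP16) and 49 did not pass, while with centred arrays none rose and with spike-in scaling all 53 were lower. Over all genes tested, 24.6% were called higher and 7.67% lower, or 14.3% and 12.9% with centred arrays. With spike-in scaling 5249 of the 5449 genes were lower. With the replicate number as a block, 11 of the 53 rose and 1 fell, where 35.3% and 12.2% of all genes were called. The changes of the 53 genes lay between -0.20 and 0.33, a range that held 3991 of all 5449 genes (73.2%). Their median change was 0.10, against 0.09 over all genes. In the fit without the block, 52 of the 53 had a 95% interval inside a 1.5-fold change in either direction, against 77.5% of all genes. The exception was NOP10. At an unadjusted p under 0.05 in that fit, 7 were higher and 1 lower, and no call reached a 1.5-fold change.

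**Figure D1:**
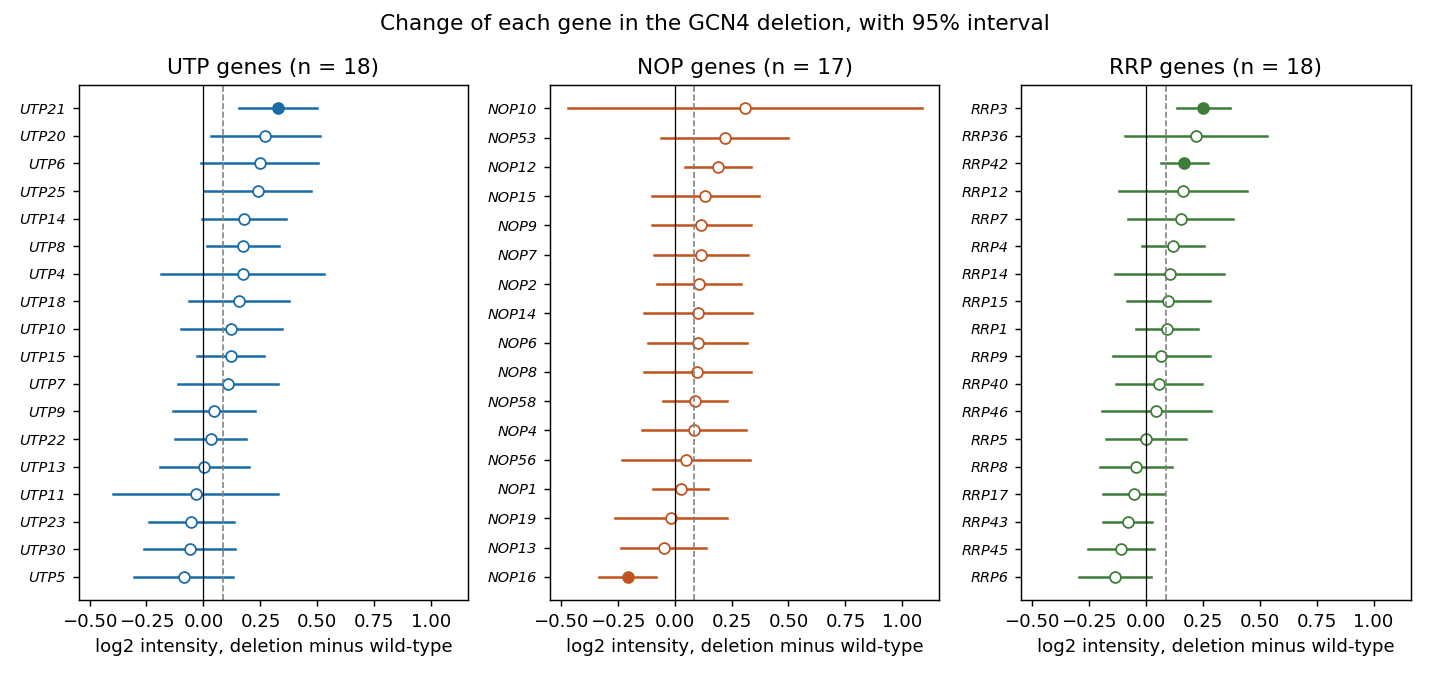
Log2 change (deletion minus wild-type) of each UTP, NOP and RRP gene, with its 95% interval from limma over 3 and 3 arrays. Filled points passed the test, open points did not, and the dashed line is the median of all genes tested (0.09). Changes lie between -0.20 and 0.33, and scaled to the poly-A spike-ins all of them would lie below 0.

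**Figure D2:**
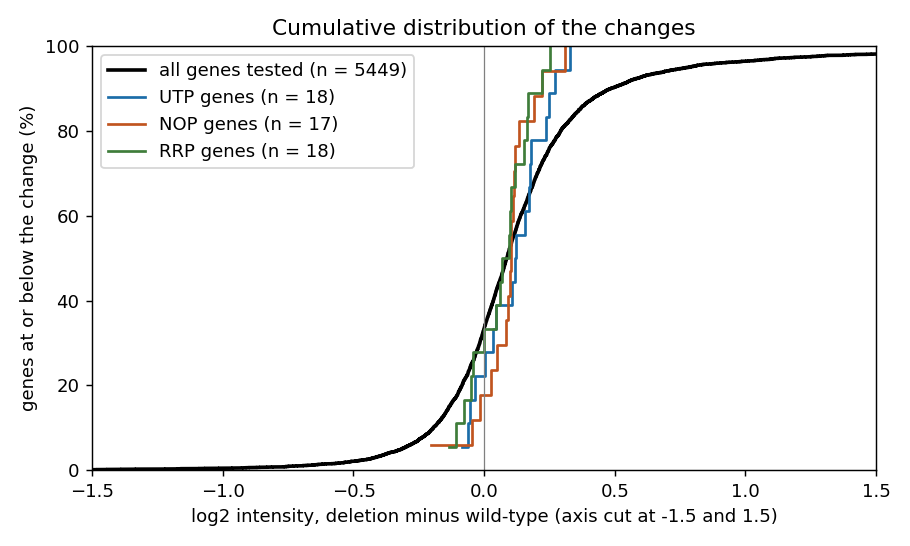
Share of genes (%) at or below each log2 change, for all 5449 genes tested and for the 18 UTP, 17 NOP and 18 RRP genes. The 3 coloured curves rise within -0.20 to 0.33, while the curve of all genes extends past both ends of the axis.

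Groups of arrays overlapped for most of these genes. In 9 genes every deletion array lay above every wild-type array, and in 2 genes, NOP16 and RRP43, below. Over all genes the shares were 34.9% and 12.6%. The median SD between replicates over the 53 genes was 0.11 (wild-type) and 0.10 (deletion), larger than the 0.085 and 0.081 over all genes. Apart from NOP10, no SD was above 0.23.

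Replicate numbers paired the arrays by the check described in the processing, and with the number as a block 11 of the 53 genes rose and 1 fell, where 35.3% of all genes were called higher and 12.2% lower. Compared with the fit without the block, the genes added as higher were NOP12, NOP53, RRP7, UTP4, UTP6, UTP8, UTP20 and UTP25. Between same-numbered arrays, 27 genes were higher in all 3 pairs and 5 were lower in all 3, which is 50.9% and 9.43% of the 53. The same shares over all genes were 50.7% and 21.6%. Subtracting each array's median moved the median change of the 53 genes to -0.0015. By limma on these centred arrays none rose and 2 fell, NOP16 and RRP43, while 2 higher and 5 lower had an unadjusted p under 0.05. Centred, 14.3% of all genes were called higher and 12.9% lower.

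UTP genes of the processome had a median change of 0.12, and 1 of 18 was called, against 32.2% of all genes. UTP21, a subunit of the UTP-B subcomplex, was at 12.00, 11.85 and 12.04 in the wild-type and at 12.22, 12.30 and 12.36 in the deletion. The groups did not overlap, and UTP21 rose 1.25-fold (log2 change 0.33, SE 0.07, adjusted p = 0.0154, limma). That call ended when the arrays were centred (adjusted p = 0.101), after quantile normalization (adjusted p = 0.0544) and without deletion replicate 2 (adjusted p = 0.0529).

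Next in order came UTP20, a very large helical repeat protein of the processome, with 11.99, 11.90 and 12.15 in the wild-type and 12.24, 12.17 and 12.46 in the deletion. Its groups also did not overlap, yet the change of 0.27 did not pass (adjusted p = 0.083, limma). It passed with the block (adjusted p = 0.0044), with array weights (adjusted p = 0.0489) and without both arrays numbered 3 (adjusted p = 0.0460). UTP6, another UTP-B subunit, had 11.74, 11.60 and 11.94 in the wild-type and 11.90, 11.99 and 12.14 in the deletion. Wild-type replicate 3 lay above deletion replicate 1, and the change of 0.25 did not pass (adjusted p = 0.128, limma), but did with the block (adjusted p = 0.0208) and without wild-type replicate 3 (adjusted p = 0.0454).

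The lowest UTP gene was UTP5, of the UTP-A subcomplex that binds the start of the precursor, at 12.48, 12.26 and 12.36 against 12.26, 12.15 and 12.42 in the deletion. UTP30, which encodes a protein related to a ribosomal protein, had 11.39, 11.21 and 11.43 against 11.40, 11.22 and 11.22. UTP23, needed for release of a snoRNA from early precursors, had 12.37, 12.11 and 12.16 against 12.17, 12.15 and 12.16. In all 3 the groups overlapped, and the intervals of the change were -0.30 to 0.13, -0.26 to 0.14 and -0.24 to 0.13.

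By subcomplex, 0 of 6 UTP-A genes passed in limma (1 at an unadjusted p under 0.05), with changes from -0.09 (UTP5) to 0.17 (UTP8). Of 4 UTP-B genes 1 passed, UTP21, and UTP13 had a change of 0.00. Over all genes tested 32.2% passed. With the block 2 UTP-A and 2 UTP-B genes were higher, where 35.3% of all genes were. The UTP-A genes UTP4, UTP9, UTP10 and UTP15 had changes of 0.17, 0.05, 0.12 and 0.12, and the UTP-B gene UTP18 had 0.16. UTP-C, which links the processome to casein kinase, was represented by UTP22 (0.03), RRP7 (0.15) and RRP36 (0.22). Without the block none of these passed, adjusted or not. With the block RRP7 passed (adjusted p = 0.0498, limma), while UTP22 and RRP36 did not (adjusted p = 0.594 and 0.0530). RRP36, an early cleavage factor, was at 10.40, 10.49 and 10.65 in the wild-type and 10.47, 10.89 and 10.85 in the deletion, with deletion replicate 1 inside the wild-type range, and passed without that array (adjusted p = 0.0423). Among the other small subunit factors with UTP, NOP or RRP names, 14 in number, RRP3 alone was called, and UTP25, a processome protein related to DEAD-box helicases, followed UTP20 and RRP3 with a change of 0.24 (adjusted p = 0.111). UTP14, the activator of the Ecm16 helicase, had 0.18 (adjusted p = 0.128, limma) with no overlap of the groups, and UTP7 and UTP11 had 0.11 and -0.03.

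**Figure D3:**
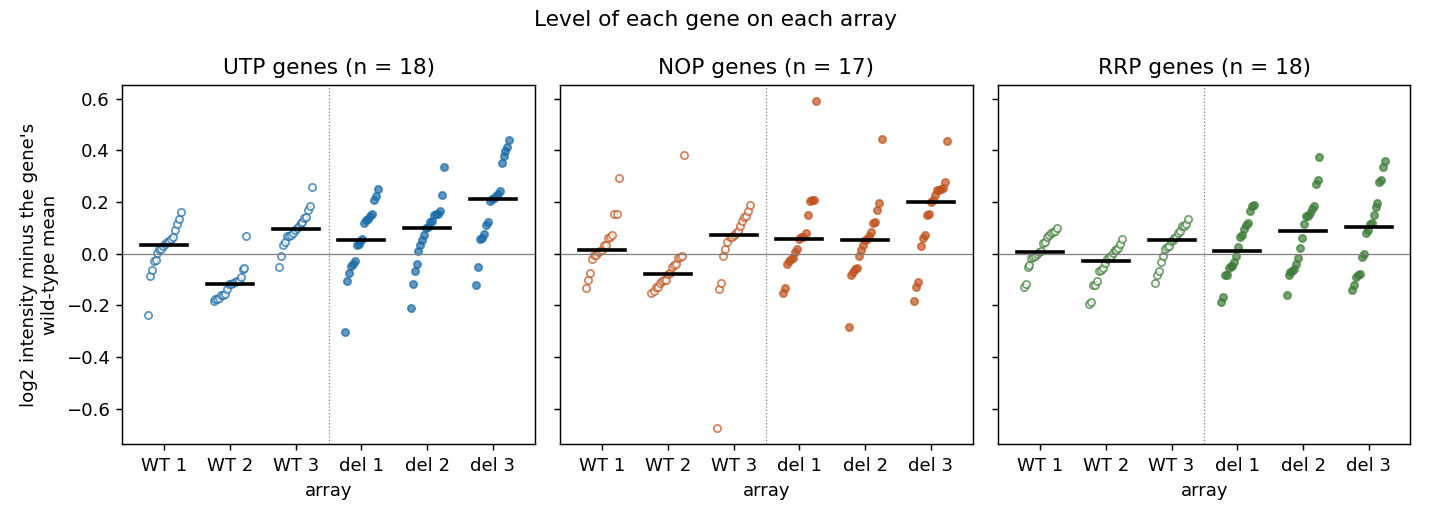
Log2 intensity of each gene on each array, minus the gene's wild-type mean, for UTP, NOP and RRP genes. Points are genes, open for wild-type (WT) and filled for deletion (del) arrays, and black lines are medians. In each panel the medians lie between -0.12 and 0.21, and the lowest point in the NOP panel is NOP10 on wild-type replicate 3.

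NOP genes had a median change of 0.10, and 1 of 17 was called, against 32.2% of all genes. NOP16, a constituent of large subunit precursors, was at 11.72, 11.71 and 11.74 in the wild-type and at 11.57, 11.44 and 11.54 in the deletion. All 3 deletion arrays were below all 3 wild-type arrays, and NOP16 fell 1.15-fold (log2 change -0.20, SE 0.05, adjusted p = 0.0263, limma). Of the 6 arrays, deletion replicate 1 was the only one whose removal kept the call, and without each of the others adjusted p was 0.0506 to 0.0816.

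NOP13, a nucleolar RNA-binding protein gene, had 12.05, 11.91 and 12.09 against 11.88, 11.93 and 12.09 in the deletion. NOP19, needed for the entry of Utp25 into the processome, had 10.46, 10.27 and 10.19 against 10.46, 10.24 and 10.18. In NOP19 each deletion array lay within 0.03 of the wild-type array of the same number. At the other end NOP12, an RNA-binding protein gene of 25S rRNA maturation, had 12.11, 12.03 and 12.17 in the wild-type and 12.30, 12.22 and 12.35 in the deletion. The NOP12 groups did not overlap, and its change of 0.19 missed the threshold (adjusted p = 0.0545, limma). It passed with the block (adjusted p = 0.0125), with trend and robust eBayes (adjusted p = 0.0474) and with array weights (adjusted p = 0.0406).

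NOP53, whose product brings the exosome to large subunit precursors, had 11.80, 11.86 and 12.05 in the wild-type and 11.96, 12.07 and 12.34 in the deletion. Wild-type replicate 3 exceeded deletion replicate 1, and the change of 0.22 did not pass (adjusted p = 0.201, limma), but did with the block (adjusted p = 0.0133). NOP10, the smallest subunit of the H/ACA snoRNPs that pseudouridylate rRNA, stood apart by its spread. It was at 12.73, 12.82 and 11.76 in the wild-type and at 13.03, 12.88 and 12.33 in the deletion, with SDs of 0.59 and 0.37. Both arrays numbered 3 were the lowest of their group. The interval of its change was -0.47 to 1.08, the widest of the 53 (adjusted p = 0.519, limma). With the block the interval was 0.06 to 0.56, and NOP10 did not pass (adjusted p = 0.0522).

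The core proteins of the box C/D snoRNPs, which methylate rRNA, had changes of 0.03 to 0.09. NOP1, the methyltransferase fibrillarin, had 13.72, 13.60 and 13.65 in the wild-type and 13.66, 13.67 and 13.72 in the deletion, an interval of -0.09 to 0.15. NOP56 had 13.14, 13.10 and 13.40 against 13.17, 13.16 and 13.46, and NOP58 had 13.79, 13.68 and 13.80 against 13.84, 13.79 and 13.91. In all 3 genes the groups overlapped and the test was not passed. SNU13, their partner in the box C/D snoRNP, had a change of -0.02, and CBF5, GAR1 and NHP2, the partners of NOP10, had 0.03, -0.03 and 0.09. Of the 17 NOP genes, those of large subunit assembly NOP2, NOP4, NOP7, NOP8 and NOP15 lay between 0.09 and 0.13, and none passed. NOP6, NOP9 and NOP14, which act on the small subunit, had 0.10, 0.12 and 0.10 and did not pass either.

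RRP genes had a median change of 0.08, and 2 of 18 were called, against 32.2% of all genes. RRP3, a DEAD-box helicase gene of 18S rRNA processing, was at 11.77, 11.77 and 11.76 in the wild-type and at 11.96, 12.05 and 12.05 in the deletion. The groups were clearly separated, and RRP3 rose 1.19-fold (log2 change 0.25, SE 0.05, adjusted p = 0.00937, limma). The call held on leaving out any 1 array, and ended with centred arrays (change 0.15, adjusted p = 0.101) and without both arrays numbered 3 (adjusted p = 0.0532).

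RRP42, a ring subunit of the exosome, was at 11.66, 11.67 and 11.71 in the wild-type and at 11.87, 11.85 and 11.83 in the deletion. It rose 1.12-fold with no overlap (log2 change 0.17, SE 0.04, adjusted p = 0.0262, limma). The change was 0.07 with centred arrays (adjusted p = 0.410), 0.07 with quantile normalization (adjusted p = 0.325) and 0.10 with cyclic loess (adjusted p = 0.149). The call was kept without deletion replicate 3 and ended without each of the other arrays (adjusted p of 0.0503 to 0.0947).

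RRP45 and RRP43, of the same ring, had changes of the opposite sign that did not pass. RRP45 had 11.71, 11.77 and 11.78 in the wild-type and 11.56, 11.73 and 11.63 in the deletion, a change of -0.11 (adjusted p = 0.221, limma). RRP43 had 11.51, 11.46 and 11.44 against 11.39, 11.40 and 11.39, a change of -0.08 with no overlap (adjusted p = 0.234), which passed with centred arrays (change -0.18, adjusted p = 0.0442). RRP46, also of the ring, had a change of 0.05, and the cap subunits RRP4 and RRP40 had 0.12 and 0.06. RRP6, the nuclear exonuclease of the exosome, was the lowest RRP gene with 11.47, 11.28 and 11.40 against 11.22, 11.23 and 11.31, a change of -0.14 (adjusted p = 0.168). Differences between subunits were not tested.

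RRP9, the protein specific to the U3 snoRNP, had 11.96, 11.69 and 11.99 in the wild-type and 11.95, 11.90 and 12.00 in the deletion. Wild-type replicate 2 was the lowest of the 6 arrays, and the interval of the change was -0.15 to 0.28. RRP5, which acts in the maturation of both subunits, had a change of 0.00. RRP12, an export factor of precursor subunits, had 0.16 (adjusted p = 0.343), and RRP1, RRP14 and RRP15 of large subunit assembly had 0.09, 0.10 and 0.10. RRP8, a methyltransferase gene for 25S rRNA, and RRP17, an exonuclease gene for its 5' end, had -0.04 and -0.05, and neither passed. The genes NOP8 and RRP40 are separated by 1 protein-coding gene, the closest of these genes to each other, and had changes of 0.10 and 0.06.

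**Figure D4:**
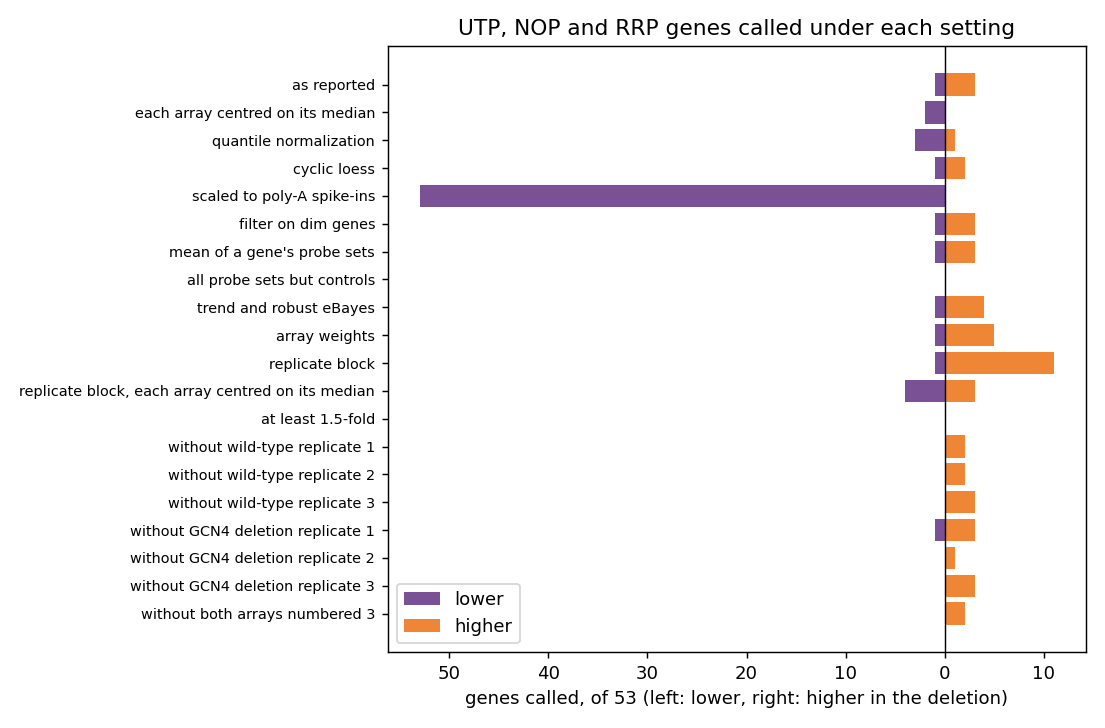
Number of the 53 genes called lower (left) and higher (right) in the deletion, as reported and under each other setting. The counts as reported are 1 lower and 3 higher. With the replicate number as a block 11 were higher, and with centred arrays 0 were higher. Scaled to the poly-A spike-ins all 53 were lower, as were 5249 of all 5449 genes.

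Other genes of the pathway were taken from lists of textbook factors, with 156 measured. Of these 18 rose and 4 fell, with a median change of 0.10, so that 14.1% were called, against 32.2% of all genes. With the block 39 were higher and 10 lower, where 35.3% and 12.2% of all genes were called. After centring 5 were higher and 10 lower, where 14.3% and 12.9% of all genes were called. Without the block or centring 24.6% of all genes were called higher, and small subunit factors rose in 5 of 32 cases. Among these factors ECM16, the DEAH helicase that releases U3, rose 1.29-fold, FAL1 1.27-fold and SAS10 1.19-fold. Large subunit factors rose in 3 of 56 cases, JIP5 1.31-fold, the giant AAA ATPase gene REA1 1.21-fold and the helicase gene DBP9 1.19-fold. Of these 6, JIP5 was still called after centring, and it was also the only one to keep its call on leaving out any 1 array (adjusted p up to 0.134 in the others).

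Of 11 exosome partners 3 were called higher and 1 lower, against 24.6% and 7.67% of all genes. PAP2, a poly(A) polymerase that marks RNA for the nuclear exosome, rose 1.29-fold (adjusted p = 0.00575, limma). DIS3, the catalytic exosome subunit, rose 1.17-fold and MTR4, its helicase cofactor, 1.16-fold (not called on leaving out 5 of the 6 arrays in turn). Both calls ended with centred arrays (adjusted p = 0.186 and 0.320), quantile normalization (0.0760 and 0.182) and cyclic loess (0.0565 and 0.125). AIR1, an RNA-binding partner of Pap2, fell 1.15-fold. The ring and cap subunits SKI6, MTR3 and CSL4 had changes of 0.10, 0.03 and -0.02 and did not pass.

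Among snoRNP assembly factors 3 of 9 rose, where 24.6% of all genes did, RSA1 1.43-fold, BCD1 1.29-fold and SHQ1 1.19-fold, the last pair with adjusted p of up to 0.0732 on leaving out 1 array. BCD1 and SHQ1 were not called after centring (adjusted p = 0.0905 and 0.189), and quantile normalization ended the RSA1 call (adjusted p = 0.160). RRN7, a subunit of the core factor of RNA polymerase I, rose 1.60-fold (adjusted p = 0.00247, limma). The other 14 genes of that polymerase and its factors did not pass without the block. With the block 5 of the 15 were higher (RRN7, RRN3, RRN6, RRN9 and RPA34), where 35.3% of all genes were. RNA polymerase III had 2 of 10 genes higher, RPC82 1.23-fold and RET1 1.19-fold, and neither was called after centring, nor RET1 on leaving out 5 of the 6 arrays in turn.

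Of 9 regulators of ribosome genes 3 were called lower and 1 higher, with a median change of -0.10. The shares of all genes were 7.67% lower and 24.6% higher, or 12.9% and 14.3% after centring, and the direction of the list was not tested. With the block 4 were lower and 1 higher, where 12.2% and 35.3% of all genes were called. RAP1 was the gene added as lower (change -0.13, adjusted p = 0.0464, limma with the block). SCH9, the TORC1 effector kinase, was at 12.17, 12.02 and 11.84 in the wild-type and 11.56, 11.40 and 11.66 in the deletion and fell 1.39-fold (adjusted p = 0.0163, limma). FHL1, a forkhead factor at ribosomal protein promoters, was at 10.15, 10.08 and 9.98 against 9.71, 9.68 and 9.66 and fell 1.30-fold (adjusted p = 0.00386), and its co-activator gene IFH1 fell 1.15-fold (adjusted p = 0.0316). In these 3 genes all deletion arrays lay below all wild-type arrays. CRF1, the co-repressor that competes with Ifh1, was below the background level on all 3 wild-type arrays, at 6.01, 5.99 and 6.28, and at 6.98, 7.12 and 7.17 in the deletion. On the values as deposited CRF1 was thus at least 1.55-fold higher. The test was of its measured change of 0.997 (adjusted p = 0.000681, limma). The calls of SCH9, FHL1, IFH1 and CRF1 were kept with centred arrays and with the block. However, SCH9 lost its call without deletion replicate 2 (adjusted p = 0.0524) and CRF1 with quantile normalization (change 0.49, adjusted p = 0.0577).

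The regulators that act at ribosome biogenesis genes themselves did not pass. SFP1, their activator, had a change of -0.10 (adjusted p = 0.364, limma), and the repressor genes STB3, TOD6 and DOT6 had 0.19, -0.03 and 0.14 (adjusted p of 0.184, 0.909 and 0.122). Of 127 cytosolic ribosomal protein genes, the targets of Fhl1 and Ifh1, 0 were called by limma, 2 had an unadjusted p under 0.05, 3 were higher and 2 lower with the block, and 2 were lower after centring. Of all 5449 genes 32.2% were called by limma, and 1745 were higher and 595 lower at an unadjusted p under 0.05. With the block 35.3% of all genes were higher and 12.2% lower, and after centring 12.9% were lower. The median change of the ribosomal protein genes was 0.01.

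The arrays also carry control probe sets for the rRNA that these genes help to make. Mature rRNA has no poly(A) tail like that of mRNA, so these signals need not follow the amount of rRNA. In a fit over all 10928 probe sets, where 8.58% were called higher and 3.9% lower, 3 of 8 probe sets for 25S rRNA were lower in the deletion and 0 of 8 for 18S rRNA were called. The probe set for the middle of 25S rRNA was at 13.16, 13.08 and 13.16 in the wild-type and at 12.36, 11.76 and 12.00 in the deletion, 2.13-fold lower with no overlap (adjusted p = 0.00856, limma).

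That for the 3' end of 25S rRNA was at 14.69, 14.62 and 14.64 against 14.68, 14.66 and 14.71, with an interval of -0.11 to 0.18. At the 5' end the values were 13.00, 12.52 and 12.15 in the wild-type and 12.94, 11.94 and 11.77 in the deletion, and the change of -0.34 did not pass (adjusted p = 0.611). The 5.8S probe set had a change of -0.64 that did not pass either (adjusted p = 0.287). The difference between 3' and 5' probe sets of mRNA, a sign of RNA quality or of cDNA length, was larger in the deletion for all 8 control mRNAs compared, by 0.03 (TDH1) to 0.28 (SRB4) on the log2 scale, and its part in the rRNA result and in the gene results was not tested.

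**Figure D5:**
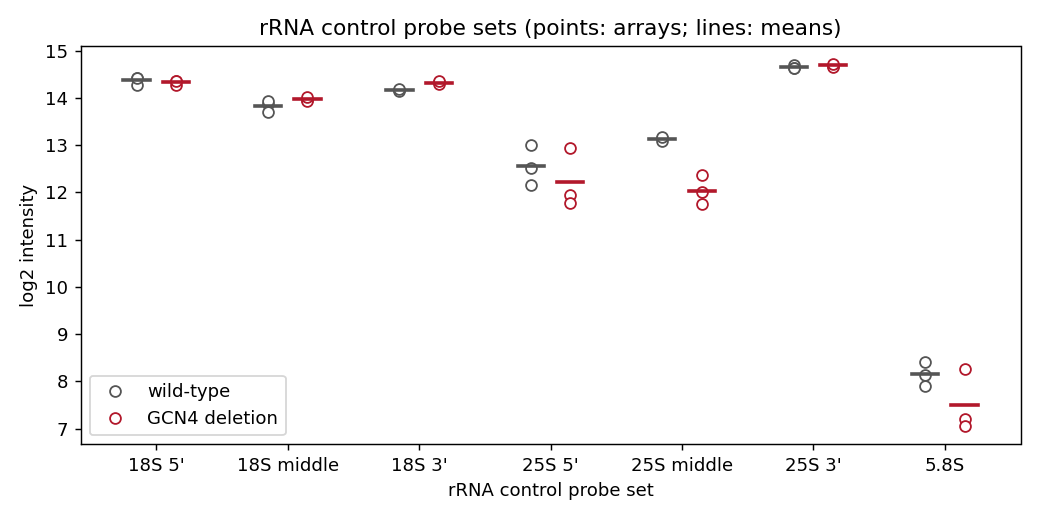
Log2 intensity of rRNA control probe sets on the 3 wild-type and 3 deletion arrays. Points are arrays and lines are group means. The middle of 25S rRNA is lower on all deletion arrays (11.76 to 12.36 against 13.08 to 13.16), while the 3' end of 25S rRNA overlaps between the groups.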

How the data were processed

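The authors deposited normalised intensities on a linear scale, 1 column per array. The submitters' processing notes name R 2.8.0, affy and RMA without role or order. Log2 was taken here with no pseudocount, since all values were above 0. Probe sets were named through the platform annotation and updated by gene identifier in the R64 gene table, used for names and neighbours only. Of 47 genes with several probe sets the brightest was kept.

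The test was limma's moderated linear model (version 3.58.1, R 4.3.3), two-sided, on deletion against wild-type, with Benjamini-Hochberg adjustment over 5449 genes and a threshold of 0.05, after a test on simulated data. Intervals are at 95% and unadjusted. Where the replicate block is not named, counts, intervals and p-values are from fits without it. The number of arrays limits the precision. Where the wild-type lay below background, the fold was set against each array's background level.

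Members and lists were chosen with earlier results of these data known. Values per array are given for the 3 lowest and 3 highest genes of each prefix, for NOP1, NOP56, NOP58, NOP10 and RRP9, and up to 3 called genes per other list are named. UTP4, UTP8, UTP25, RRP7 and others given by change alone were named after their values were seen.

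Replicate numbers come from the titles. Across genes, an array's deviations from its group mean had r of 0.69, 0.53 and 0.71 with those of the array of that number in the other strain, above a limit of 0.1, so the numbers were taken as pairs. Wild-type replicate 2 and deletion replicate 1 also had r of 0.23. A planned search of promoter motifs was not run, since sequence was not used here. Alternatives covered scaling, filters, probe sets, the variance model, weights, the block and left-out arrays. Figures used matplotlib 3.10.9.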

Additional observations from a re-analysis of the deposited data

Results flagged for a closer look

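The poly-A spike-in probe sets, used for genes only in the setting scaled to them, gave a higher signal on the deletion arrays than on the wild-type arrays. Their mean log2 level over 12 probe sets was 7.81, 7.73 and 8.56 in the wild-type and 9.68, 9.45 and 10.01 in the deletion, a difference of 1.68 with no overlap, and single probe sets differed by 1.51 to 1.78. Spike-in amount, total RNA input and labelling cannot be told apart here.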

How the results depend on the processing

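The 4 calls among the 53 genes were small and depended on the setting. As reported 1 was lower and 3 higher, with 1 UTP, 1 NOP and 2 RRP genes called, 22 other pathway genes called, and a median change of 0.10. The filter on dim genes and the mean of a gene's probe sets kept these counts. Trend and robust eBayes gave 4 higher and 2 NOP genes, and array weights 5 higher, with 2 UTP, 2 NOP and 2 RRP genes, 28 other genes and a median of 0.07. With the replicate block 11 were higher, with 6 UTP, 3 NOP and 3 RRP genes and 49 other genes. With the block and centred arrays 4 were lower and 3 higher, with 2 UTP and 4 RRP genes, 40 other genes and a median of -0.0015. Centring gave 2 lower, 0 higher, 0 UTP, 1 NOP and 1 RRP gene, 15 other genes and a median of -0.0015. Quantile normalization gave 3 lower, 1 higher, 0 UTP and 3 RRP genes, 15 other genes and a median of 0.014, and cyclic loess 1 lower, 2 higher, 1 RRP gene, 14 other genes and a median of 0.03. With all probe sets but controls in the fit 0 were lower and 0 higher (0 of each prefix, and 8 other genes; 1 and 7 of the 53 had an unadjusted p under 0.05 in the limma fit of genes). A 1.5-fold limit left 0 lower, 0 higher, 0 of each prefix and 2 other genes. Leaving out 1 array gave 0 to 1 lower, 1 to 3 higher, 0 to 2 UTP, 0 to 1 NOP and 1 to 2 RRP genes, 10 to 20 other genes and medians of 0.05 to 0.14. Without both arrays numbered 3, a choice made after seeing the data, 0 were lower and 2 higher, with 2 UTP, 0 NOP and 0 RRP genes and 13 other genes. Over all genes, 418 lower and 1338 higher became 703 and 778 after centring, 873 and 692 after quantile normalization, 690 and 868 after cyclic loess, 229 and 832 with all probe sets but controls, and 666 and 1925 with the block. They became 551 and 1628 with array weights, 429 and 1355 with trend and robust eBayes, and 1320 and 1223 with block and centred arrays. A 1.5-fold limit left 79 lower and 394 higher of all genes. Leaving out 1 array gave 270 to 355 lower and 920 to 1141 higher, and leaving out both arrays numbered 3 gave 337 and 1070. The cause of these shifts was not tested.

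Scaling to the spike-ins subtracts their difference from every gene. It gave 53 lower and 0 higher (18 UTP, 17 NOP and 18 RRP genes), 155 other pathway genes called, a median of -1.58, and 5249 of all genes lower and 35 higher. Named genes that turned sign had log2 changes of -1.35 in UTP21, -1.41 in UTP20, -1.43 in UTP6, -1.65 in NOP1, -1.37 in NOP10, -1.49 in NOP12, -1.46 in NOP53, -1.63 in NOP56, -1.59 in NOP58, -1.42 in RRP3, -1.46 in RRP36, -1.51 in RRP42 and -1.61 in RRP9. In other pathway genes they were -1.31 in BCD1, -0.68 in CRF1, -1.42 in DBP9, -1.46 in DIS3, -1.31 in ECM16, -1.33 in FAL1, -1.29 in JIP5, -1.46 in MTR4, -1.32 in PAP2, -1.40 in REA1, -1.43 in RET1, -1.38 in RPC82, -1.0 in RRN7, -1.17 in RSA1, -1.43 in SAS10 and -1.43 in SHQ1.

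The 3 called 25S rRNA probe sets kept their direction in all 14 alternatives run. Of these, 1 lost its call without wild-type replicate 1 or 3 or deletion replicate 3 (adjusted p of 0.0508 to 0.0567, limma).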

Other observations

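On each array most of the UTP, NOP and RRP genes lay on the same side of their group mean. Their median deviation from the group mean was 0.02, -0.10 and 0.07 for wild-type replicates 1 to 3 and -0.03, -0.02 and 0.07 for deletion replicates 1 to 3. Over all genes these medians were -0.006, 0.014 and 0.003 in the wild-type and -0.003, -0.007 and 0.012 in the deletion. On wild-type replicate 2, 45 of the 53 genes lay below their group mean, and on both arrays numbered 3, 42 and 43 lay above it. On wild-type replicate 1, 34 lay above their group mean, and on deletion replicates 1 and 2, 41 and 36 lay below it. The same counts were not made over all genes. The cytosolic ribosomal protein genes, set against their wild-type mean, had medians of -0.06 on wild-type replicate 3 and -0.05 on deletion replicate 3, where the 53 genes had 0.07 and 0.15. Deviations within a group sum to 0, so these values are not independent of each other, and whether the replicates differed in growth or handling was not tested.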
